A study of Mus musculus with 12 samples.

Results

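The 8 genes described here encode subunits of 2 protein assemblies that work side by side on endosomes. Of these, 4 belong to the WASH complex (Washc2, Washc3, Washc4 and Washc5) and 4 to retromer (Vps26a, Vps26b, Vps29 and Vps35), out of 18278 genes in the files. The set was chosen by the log2 differences between labelled Nfib knockout and parental libraries, starting from Washc5, to ask whether its partners moved with it. That comparison is therefore given for the 8 genes as a description, without a test. The 8 genes all passed the filter on low counts that left 18176 genes for testing.

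Endosomes send membrane proteins either to lysosomes or back to the cell surface and the Golgi. Retromer, built from VPS35, VPS29 and a VPS26 subunit, gathers cargo for the return routes. It recruits the WASH complex, which activates the Arp2/3 complex to build branched actin on the endosome. In WASH, the WASHC1 subunit carries the part that activates Arp2/3, WASHC2 has a long tail that binds retromer, WASHC4 and WASHC5 (strumpellin) form the scaffold, and WASHC3 is a small coiled-coil subunit. VPS26A and VPS26B are alternative subunits from paralogous genes.

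RNA was taken from tumourspheres, clusters of cells grown in suspension, of the LM1 and LM9 mouse mammary cancer lines. Both lines came from lung metastases of LB-mHR1, a line from a tumour of a mouse expressing PIK3CA H1047R from the CAG promoter, after piggyBac transposon mutagenesis, so the parental groups carry that transgene and the transposon insertions too. The groups called LM1 Nfib KO and LM9 Nfib KO are each a pool of single-cell clones made with CRISPR-Cas9 and guides to the first exons of Nfib, a nuclear factor I transcription factor. Each of the 4 groups had 3 libraries, with 29249075 to 37162594 counts per library. Spheres were grown for 6 days from 10000 cells per mL with EGF and basic FGF at 20 ng per mL each. Levels are in CPM, counts scaled to a library total that was adjusted for composition by TMM. The libraries hold RNA of whole cultures, so fewer cells of a type and less RNA per cell cannot be told apart.

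Several facts of the series bear on every value below. Nfib transcripts did not fall with the knockout label. LM1 had 196, 217 and 241 CPM and its labelled knockout 239, 238 and 228 CPM. LM9 had 210.3, 119.6 and 133 CPM and its labelled knockout 227, 247 and 246 CPM. A frameshift need not lower the transcript, so this level does not check the label, and the groups are called labelled LM1 KO and labelled LM9 KO below. Epithelial markers, summed over 6 of 7 listed genes, ran from 746 to 797 CPM in LM1 and 795 to 1331 CPM in LM9, but from 26.7 to 29.0 CPM in the labelled knockouts. There Cdh1 was at or under 3 counts and Krt8, Krt18, Krt19 and Epcam were lower too, while Esr1 went the other way, from 9.72 and 5.32 CPM on average in LM1 and LM9 to 26.0 and 26.9 CPM, and made up most of the sum. The fibroblast sum (5 of 6 genes) was 174 to 309 CPM in parental libraries and 1193 to 1285 CPM in the labelled knockouts, mostly through Col1a1 (6.10 and 3.25 against 958 and 899 CPM), while Dcn was lower in LM1 (90.7 against 11.5 CPM) and in LM9 was at 84.4 CPM in replicate 1 and at 15.7 and 15.1 CPM in the other libraries, against 12.4 CPM. The endothelial sum (3 of 5 genes) was at most 2.64 CPM against 85.6 to 92.5 CPM, through Cdh5 and Vwf. Pecam1 did not share that rise, with 0.314 and 0.880 CPM on average in LM1 and LM9 against 0.433 and 0.332 CPM. The collecting duct sum (6 of 8 genes) was at most 26.4 CPM against 988 to 1119 CPM, nearly all of it Aqp2 (0.0103 and 0 against 1087 and 1008 CPM). Tfcp2l1 was higher too, Pax2, Pax8 and Hsd11b2 reached at most 0.535 CPM on average, and Aqp3 was lower (7.25 and 19.4 against 0.906 and 1.04 CPM). The immune sum (2 of 6 genes) was 450.2 to 554 CPM against 107 to 117 CPM, through Cd68, while Csf1r went from at most 1 count per library to 12.4 and 12.3 CPM. The basal sum (3 of 4 genes) was 0.443 to 19.1 CPM against 6.78 to 7.63 CPM, with Krt14 and Krt17 higher in the labelled knockouts of both lines. Trp63 was lower in LM1 (17.1 against 0.302 CPM), while LM9 had 17.9 CPM in replicate 1 and at most 0.276 CPM in the other libraries, against 0.270 CPM. The part of these shifts in the results for WASH and retromer genes was not tested. The labelled knockout libraries of both lines correlated at 0.993 to 0.994 with each other and at 0.685 to 0.701 with parental libraries (log2 levels across genes). LM9 replicate 1 lay with LM1, with a correlation of log2 levels across genes of 0.991 to 0.992 with the LM1 libraries and 0.963 to 0.965 with the other 2 LM9 libraries, so the log2 differences of LM9 for the 8 genes are given with and without it, and other LM9 values include it unless stated. Neither the identity of the labelled knockouts nor that of LM9 replicate 1 could be checked here, so each difference below is one between libraries as labelled.

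Promoter sequence is given first, to show which known motifs the genes hold close to their starts. RefSeq entries on GRCm38.p6, the assembly also called mm10, were found for 6 of the 8 genes (Washc2, Washc3, Washc4, Vps26a, Vps26b and Vps29), in 7 windows because Vps26a has 2 starts. The search covered the 250 bases before each start on both strands. The stretches shown are those of Washc2 and Vps26a, which were higher in the labelled knockouts and hold the E-box core CACGTG, and that of Vps26b, the paralogue that was lower. Capitals mark CACGTG and, in Washc2, the CCAAT box. The Washc2 stretch is chr6:116207783-116208032 (plus strand), that of Vps26a chr10:62486806-62487055 (minus strand), and that of Vps26b chr9:27030095-27030174 (minus strand), the 80 bases up to the start of the neighbouring gene Ncapd3.
Washc2: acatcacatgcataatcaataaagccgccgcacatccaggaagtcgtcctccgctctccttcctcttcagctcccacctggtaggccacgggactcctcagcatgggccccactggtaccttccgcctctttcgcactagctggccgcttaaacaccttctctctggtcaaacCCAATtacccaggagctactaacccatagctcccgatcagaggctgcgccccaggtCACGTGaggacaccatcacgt
Vps26a: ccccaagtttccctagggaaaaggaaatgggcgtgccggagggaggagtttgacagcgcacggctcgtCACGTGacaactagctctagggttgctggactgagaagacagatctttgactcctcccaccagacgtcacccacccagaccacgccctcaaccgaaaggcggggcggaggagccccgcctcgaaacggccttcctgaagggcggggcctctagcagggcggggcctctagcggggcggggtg
Vps26b: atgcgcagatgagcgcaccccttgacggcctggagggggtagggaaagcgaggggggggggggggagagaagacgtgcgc

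CACGTG was present in windows of 2 of the 6 genes, Washc2 and Vps26a, and in 6.86% of all genes with a RefSeq promoter, counted in the same windows. It was absent from those of Washc3, Washc4 and Vps29, which were also higher, and of Vps26b. The longer CLEAR element, which contains CACGTG and is bound by the lysosomal regulator TFEB, was matched in Vps26a alone, at both of its starts, and in 0.27% of all genes. The shorter core ACGTG, which CACGTG contains and which hypoxia-inducible factors bind, was in windows of 3 of the 6 genes and in 18.5% of all genes. The single nuclear factor I site TTGGCN was found for Washc4 and Vps26b, 2 of the 6 genes, and for 45.2% of all genes. Its match in Vps26b lies outside the stretch printed, beyond the start of Ncapd3. The full nuclear factor I palindrome was matched in none of the 7 windows and in 0.0444% of all genes. CCAAT was found for Washc2 and Washc3 (37.5% of all genes), the NRF1 site for Vps29 (5.64%), and the ETS core CCGGAAGT for none (3.23%). No motif searched was present in more than 3 of the 6 genes, and a match is a description of the letters only.

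The scaffold subunit Washc5 had the largest difference among the 8 genes. The gene (ENSMUSG00000022350) lies on chromosome 15 between 59331997 and 59374167 on the minus strand (mm10), with 29 exon blocks of 4244 bases in all. Its level was 48.8, 47.9 and 52.6 CPM in LM1 and 625, 627 and 633 CPM in labelled LM1 KO. LM9 had 49.5, 51.1 and 48.4 CPM and labelled LM9 KO 655, 623 and 643 CPM. The groups did not overlap, and LM9 replicate 1 was like the other parental libraries. Overlap was not counted over all genes, so nothing is read from its absence here or for the genes below. Of all genes, 39.6% were called higher and 33.5% lower in both lines (limma-voom, adjusted p under 0.05). The log2 difference, labelled knockout minus parental, was 3.66 (SE 0.05) in LM1 and 3.69 (SE 0.05) in LM9, or 12.6-fold and 12.9-fold, and it was 3.69 (SE 0.05) in LM9 without replicate 1. In the mean of both lines Washc5 ranked 1653 of 18176 genes from the highest.

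Washc4, the other scaffold subunit (ENSMUSG00000034560, chromosome 10, 83543752 to 83596473, plus strand, 33 exon blocks), had, relative to its mean, the widest spread of the 8 genes among the parental LM9 libraries. It was at 43.0, 50.2 and 49.4 CPM in LM1 and 137, 138 and 129 CPM in labelled LM1 KO. LM9 replicate 1 had 44.6 CPM, within the range of LM1, while LM9 replicates 2 and 3 had 16.8 and 17.4 CPM. Labelled LM9 KO had 136, 149 and 145 CPM. The labelled knockouts of both lines were thus above every parental library, and the 2 low LM9 libraries were below every other library. The log2 difference was 1.51 (SE 0.24) in LM1, or 2.84-fold, and 2.58 (SE 0.26) in LM9, or 5.99-fold. Without LM9 replicate 1 the LM9 value was 3.07 (SE 0.09), or 8.404-fold. Of its 76-base words, the length of a read, 1.93% occur in transcripts of other genes.

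Washc2, the subunit whose tail binds retromer (ENSMUSG00000024104, chromosome 6, 116208038 to 116262686, plus strand, 28 exon blocks), had close values in both lines. It was at 61.3, 66.6 and 61.4 CPM in LM1 and 197, 198 and 195 CPM in labelled LM1 KO. LM9 had 65.0, 66.0 and 66.3 CPM and labelled LM9 KO 209, 194 and 196 CPM. No labelled knockout library overlapped a parental library. The log2 difference was 1.64 (SE 0.05) in LM1 and 1.60 (SE 0.05) in LM9, or 3.12-fold and 3.03-fold, and it was 1.60 (SE 0.05) in LM9 without replicate 1. Of its exons, 530 bases overlap Gm44103 on the opposite strand, which was also counted, at 0 or 1 count in each parental library and 9 to 18 counts in the labelled knockouts, and 4.86% of its 76-base words occur in transcripts of that gene.

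Washc3, the small coiled-coil subunit (ENSMUSG00000020056, chromosome 10, 88201093 to 88246158, plus strand, 11 exon blocks), had the lowest mean level per length of the WASH genes in each group. It was at 13.8, 13.8 and 12.8 CPM in LM1 and 22.2, 23.3 and 25.3 CPM in labelled LM1 KO. The LM9 libraries had 12.6, 17.0 and 16.0 CPM, and those of labelled LM9 KO 23.9, 23.1 and 21.8 CPM. The groups again did not overlap, but the log2 differences of 0.80 (SE 0.11) in LM1 and 0.61 (SE 0.10) in LM9 lay inside the middle 50% of all genes. Without LM9 replicate 1, which was the lowest LM9 library, the LM9 value was 0.48 (SE 0.07). The order per length in LM9 rested on that library. In LM9 replicates 2 and 3 Washc4 was lower than Washc3, at 2.76 and 2.85 against 3.74 and 3.53 CPM per kb.

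**Figure D1:**
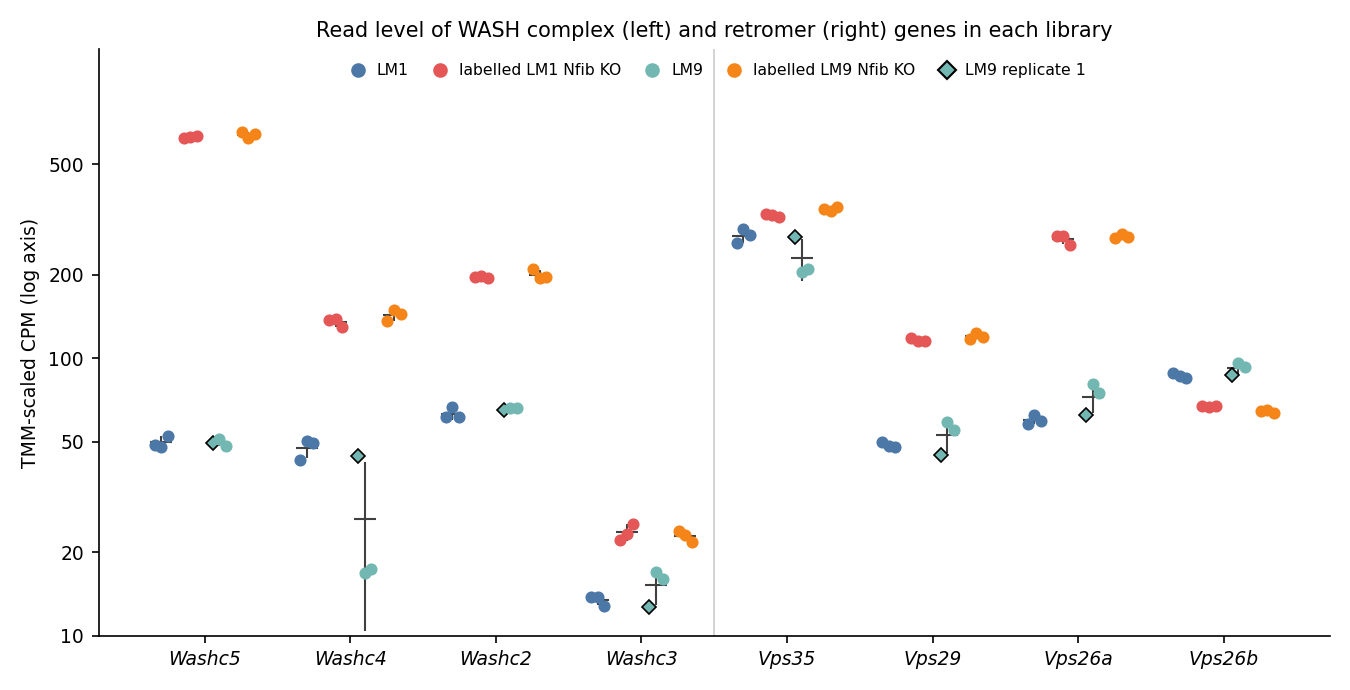
TMM-scaled CPM (log axis) of the 8 WASH complex and retromer genes in each of the 12 libraries. Points are libraries, horizontal bars the mean and vertical bars the SD of 3 libraries, and the outlined diamond is LM9 replicate 1. Washc5 sits at 623 to 655 CPM in the labelled knockouts and at 47.9 to 52.6 CPM in parental libraries, Vps26b is the gene with lower values in the labelled knockouts, and for Washc4 the 2 remaining LM9 libraries lie apart at 16.8 and 17.4 CPM.

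Of the retromer genes, Vps26a had the largest difference. It (ENSMUSG00000020078) encodes the first described VPS26 subunit and lies on chromosome 10 between 62455235 and 62486805 on the minus strand, with 10 exon blocks. It was at 58.1, 62.3 and 59.2 CPM in LM1 and 276, 276 and 256 CPM in labelled LM1 KO. For LM9 the values were 62.5, 80.7 and 74.98 CPM, and for labelled LM9 KO 272, 279.8 and 274 CPM. All labelled knockout libraries lay above all parental ones. The log2 difference was 2.17 (SE 0.08) in LM1 and 1.93 (SE 0.08) in LM9, or 4.50-fold and 3.82-fold. The LM9 value was 1.83 (SE 0.05) without LM9 replicate 1.

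Vps26b, its paralogue (ENSMUSG00000031988, chromosome 9, 27007771 to 27030065, minus strand, 6 exon blocks), went the other way. It was at 88.3, 86.5 and 85.1 CPM in LM1 and 67.0, 66.7 and 67.2 CPM in labelled LM1 KO. For LM9 the values were 87.3, 96.0 and 93.3 CPM, and for labelled LM9 KO 64.6, 65.3 and 63.5 CPM. All 6 labelled knockout libraries were below all 6 parental libraries, by -0.37 (SE 0.05) on the log2 scale in LM1 and -0.51 (SE 0.05) in LM9, or -0.55 (SE 0.04) without LM9 replicate 1. With total counts in place of TMM factors the values stayed below 0 but shrank to -0.15 and -0.16. No 76-base word of either paralogue occurs in transcripts of another gene, so reads of full match are not shared between them.

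Vps29, the smallest retromer subunit (ENSMUSG00000029462, chromosome 5, 122354369 to 122364984, plus strand, 5 exon blocks), was at 50.02, 48.2 and 48.1 CPM in LM1 and 118, 115 and 116 CPM in labelled LM1 KO. The LM9 libraries had 44.8, 58.8 and 55.3 CPM, and those of labelled LM9 KO 118, 123 and 119 CPM. The labelled knockouts were above every parental library, with log2 differences of 1.26 (SE 0.08) and 1.19 (SE 0.08), or 2.39-fold and 2.29-fold, and 1.08 (SE 0.04) in LM9 without replicate 1. The opposite-strand gene Fam216a overlaps 340 of its exonic bases, and 4.33% of its 76-base words occur in transcripts of other genes. Fam216a itself had log2 differences of -0.32 and -0.40.

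Vps35, the core subunit on which retromer is assembled (ENSMUSG00000031696, chromosome 8, 85260392 to 85299802, minus strand, 18 exon blocks), had the highest mean level per length of the 8 genes in LM1, and also the smallest difference there. It was at 259, 292 and 278 CPM in LM1 and 331, 329 and 322 CPM in labelled LM1 KO. LM9 had 275, 204 and 210.1 CPM and labelled LM9 KO 345, 339.7 and 352 CPM, so that no labelled knockout library overlapped a parental one. The log2 difference was 0.24 (SE 0.10) in LM1 and 0.60 (SE 0.10) in LM9, and 0.74 (SE 0.04) without LM9 replicate 1, which had an LM1-like level. Its exons overlap those of Orc6 by 171 bases, and 1.08% of its 76-base words occur in Orc6.

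The fifth WASH subunit, Washc1, was not among the chosen genes and could be tested. It carries the Arp2/3-activating part of the complex. LM1 had 38.6, 32.1 and 37.0 CPM and labelled LM1 KO 56.9, 57.0 and 56.0 CPM, and the log2 difference of 0.66 (SE 0.17) passed the threshold (limma-voom adjusted p = 0.00356). The LM9 groups overlapped, with 36.7, 63.7 and 61.4 CPM in the parental and 60.1, 56.3 and 57.1 CPM in the labelled knockout libraries. The LM9 difference of 0.15 (SE 0.17) did not pass (adjusted p = 0.409), and it was -0.11 (SE 0.06) without LM9 replicate 1 (adjusted p = 0.0834). With total counts in place of TMM factors the LM9 difference was larger, at 0.50, and passed (adjusted p = 0.00385).

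Counted in the same way as all genes, 7 of the 8 chosen genes were higher and 1, Vps26b, lower in both lines. In LM1, 43.1% of all tested genes were called higher and 38.1% lower (limma-voom, adjusted p under 0.05), and in LM9 44.3% and 38.0%. Of all genes, 39.6% were called higher and 33.5% lower in both lines. Since this contrast chose the genes, nothing is read from their count. The median log2 difference was 1.38 over the 8 genes in LM1 and 1.40 in LM9, against 0.08 and 0.13 over all genes tested. Over the 7 genes other than Washc5 it was 1.26 in LM1 and 1.19 in LM9. The median size of the difference over all genes, either direction, was 1.20 in the mean of both lines. Washc5 was at the 85.2 percentile of that size, Vps26a and Washc4 at 70.7 and 70.6, Washc2 at 62.3 and Vps29 at 50.8. Washc3, Vps26b and Vps35 were at 32.8, 21.1 and 20.2, so their differences were smaller than those of most genes in these libraries.

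**Figure D2:**
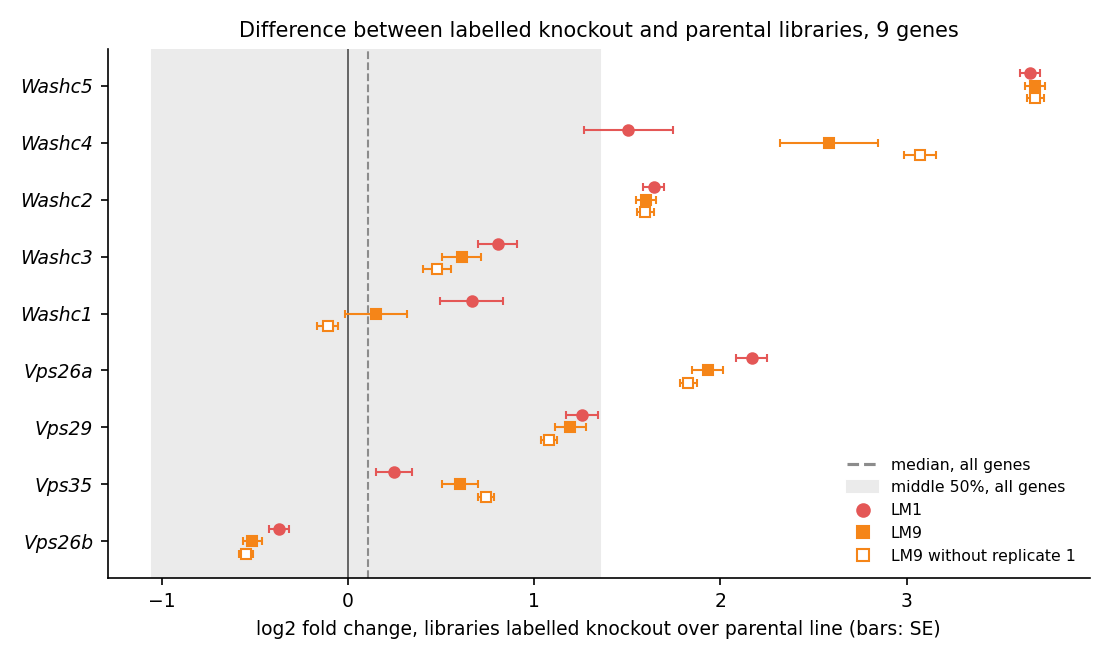
Log2 difference between labelled knockout and parental libraries for the 8 chosen genes and Washc1, with SE as bars. Circles are LM1, filled squares LM9 and open squares LM9 without replicate 1. The grey band spans the middle 50% of all genes (-1.05 to 1.35, mean of both lines), and Washc5 lies at 3.66 and 3.69, beyond every other gene shown, while Vps26b lies below 0 in both lines.

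The partners differed from Washc5 in how far they moved, and so the proportions among the mRNAs changed. Levels of different genes are compared here per length, as CPM per kb of exon union. In LM1, Vps35 was highest at 31.1 ± 1.83 (SD, n = 3), followed by Vps26a at 20.9 ± 0.745 and Vps26b at 17.0 ± 0.310. Washc5 was at 11.7 ± 0.583, Washc1 at 9.20 ± 0.864, Washc2 at 8.35 ± 0.405, Vps29 at 7.93 ± 0.177, Washc4 at 7.79 ± 0.652 and Washc3 at 2.97 ± 0.127 CPM per kb. Washc2, Vps29 and Washc4 overlapped in that order, as did Washc1 and Washc2. In LM9, Vps35 at 25.8 ± 4.38 and Vps26a at 25.4 ± 3.26 CPM per kb overlapped. In LM9 replicates 2 and 3 Vps26a was the higher, at 28.2 and 26.2 against 23.0 and 23.6 CPM per kb.

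In the libraries labelled LM1 KO, Washc5 stood first at 148 ± 0.990 CPM per kb, above Vps26a at 94.2 ± 3.94 and Vps35 at 36.8 ± 0.488. In those labelled LM9 KO it was at 151 ± 3.72, again above Vps26a at 96.3 ± 1.38 and Vps35 at 38.8 ± 0.6998 CPM per kb. Washc5 made up 38.0% ± 1.82 of the summed level per length of the 4 WASH genes in LM1 and 41.8% ± 3.02 in LM9. In the labelled knockouts its share was 73.5% ± 0.378 and 73.3% ± 0.548 (SD, n = 3). The sum of the other 3 WASH genes was 19.1 ± 0.946 CPM per kb in LM1 and 53.3 ± 0.753 in labelled LM1 KO. For LM9 it was 16.4 ± 2.03 and 55.0 ± 0.479 CPM per kb in labelled LM9 KO.

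Ratios between the genes differed between the groups as follows. Washc5 over Washc4, per length, was 1.51 ± 0.133 in LM1 and 6.71 ± 0.287 in labelled LM1 KO. Among the LM9 libraries it ranged from 1.59 in replicate 1 to 4.37, against 6.43 ± 0.458 in labelled LM9 KO. Washc5 over Washc2 went from 1.41 ± 0.123 to 5.68 ± 0.0845 in LM1 and from 1.34 ± 0.0395 to 5.71 ± 0.131 in LM9. Washc5 over Washc1 went from 1.28 ± 0.107 to 10.2 ± 0.163 in LM1 and from 0.901 ± 0.294 to 10.2 ± 0.166 in LM9. Between the alternative VPS26 subunits, Vps26a over Vps26b went from 1.23 ± 0.0551 to 7.18 ± 0.320 in LM1 and from 1.40 ± 0.114 to 7.62 ± 0.0978 in LM9. Vps35 over Vps29 went from 3.92 ± 0.307 to 1.94 ± 0.0248 in LM1, and went from 3.09 ± 1.00 to 1.99 ± 0.0715 in LM9 (mean ± SD, n = 3 each). These ratios carry the contrast that chose the genes and were not tested.

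**Figure D3:**
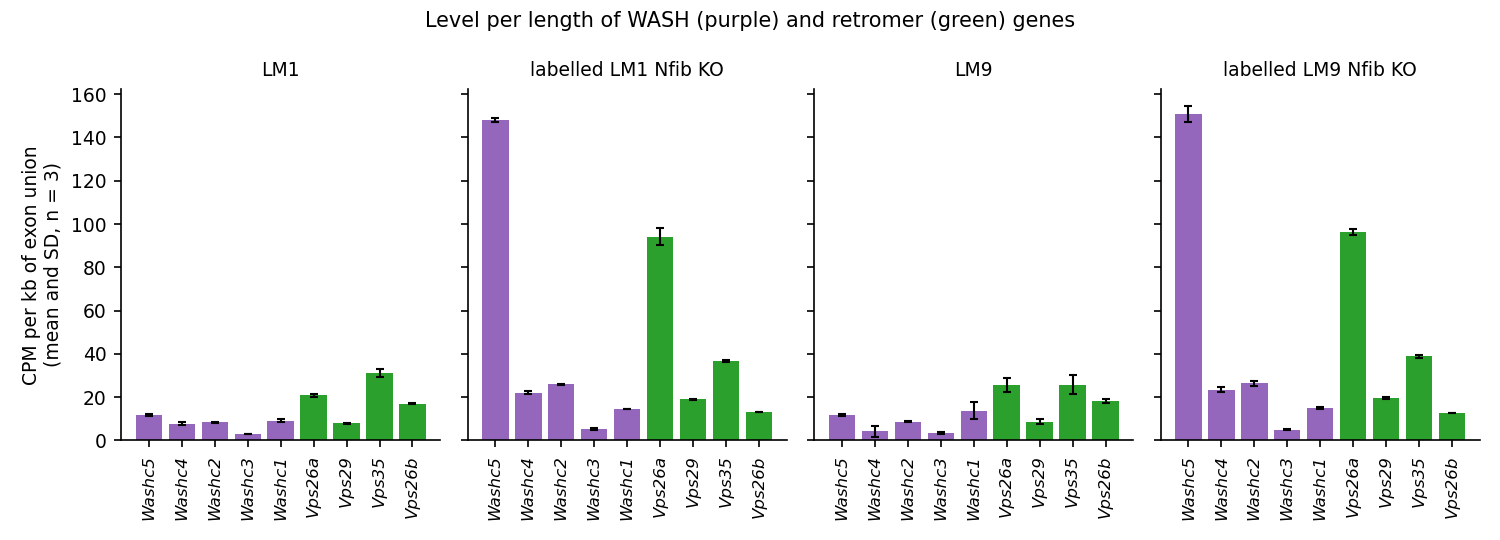
Level per length (CPM per kb of exon union, mean with SD of 3 libraries) of the 5 WASH subunit genes (purple) and 4 retromer genes (green) in each group. In the parental lines no gene exceeds 31.1 CPM per kb on average, and in the labelled knockouts Washc5 reaches 148 and 151 and Vps26a 94.2 and 96.3 CPM per kb.

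Whether the difference between labelled knockout and parental libraries was itself different in LM9 and LM1 was tested with the interaction in limma-voom, which the choice of genes did not use. With all 12 libraries, 0 of the 8 genes passed (2 had an unadjusted p under 0.05). The background was 0.0% of all genes, with 0 called of 18176 and 4495 at an unadjusted p under 0.05. edgeR and DESeq2 also called 0 of the 8, while sample quality weights in limma-voom, with all 12 libraries, called 6 of the 8 and 10557 of all genes. The estimates for Washc4 (1.08, SE 0.35, adjusted p = 0.202) and Vps35 (0.36, SE 0.14, adjusted p = 0.202) were the farthest from 0. For Washc5 the estimate was 0.03, with a 95% interval from -0.14 to 0.20 (adjusted p = 0.806), and for Washc2 it was -0.04, with an interval from -0.21 to 0.13 (adjusted p = 0.740).

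Without LM9 replicate 1, 6 of the 8 genes passed, beside 57.2% of all genes tested. The difference of Washc4 was then larger in LM9 by 1.56 on the log2 scale (SE 0.10, limma-voom adjusted p = 1.4e-09), and that of Vps35 by 0.49 (SE 0.06, adjusted p = 8.57e-07). The differences of Vps26a (-0.34, adjusted p = 0.000171), Washc3 (-0.33, adjusted p = 0.01) and Vps29 (-0.18, adjusted p = 0.0108) were smaller in LM9, and that of Vps26b lay farther below 0 (-0.18, adjusted p = 0.00486). Washc5 (0.03, interval -0.10 to 0.15) and Washc2 (-0.05, interval -0.18 to 0.08) did not pass.

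The parental lines were compared in the same way. The interaction equals this comparison minus that of the labelled knockouts, so the results below largely repeat those above. In LM1 against LM9, 0 of the 8 genes passed with all libraries (3 with an unadjusted p under 0.05), where 1 of 18176 genes, 0.0055%, was called. edgeR called 0 of the 8 as well, DESeq2 called 3 (Washc4, Vps26a and Vps35), limma-voom with total counts called 2 (Washc4 and Vps35) and with sample quality weights it called 6. Over all genes, edgeR called 1 of 18176 and DESeq2 6159 of 18140. Total counts called 5226 of 18176 and quality weights 11596 of 18176. Washc4 was higher in LM1 by 0.99 on the log2 scale (SE 0.27, limma-voom adjusted p = 0.0543), Vps35 by 0.28 (SE 0.10, adjusted p = 0.0566), and Vps26a was lower by -0.27 (SE 0.09, adjusted p = 0.0543). Without LM9 replicate 1, 6 of the 8 genes passed, beside 65.7% of all genes. Washc4 was then 2.78-fold higher in LM1 (log2 1.47, SE 0.09, adjusted p = 2.94e-10) and Vps35 1.34-fold higher (adjusted p = 2.32e-07). Vps26a was lower in LM1 by -0.38 (adjusted p = 8e-06), Washc3 by -0.29 (adjusted p = 0.00565), Vps29 by -0.23 (adjusted p = 0.00039) and Vps26b by -0.13 (adjusted p = 0.00633). Washc5 differed by 0.00 with an interval of -0.11 to 0.11, and Washc2 by -0.07 with an interval of -0.18 to 0.04.

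No difference between the labelled knockouts of LM1 and LM9 was detectable in these genes. None of the 8 passed in labelled LM1 KO against labelled LM9 KO, by limma-voom, edgeR or DESeq2, and 0 had an unadjusted p under 0.05. The background was again 0.0%, with 0 genes called of 18176 and 178 at an unadjusted p under 0.05. The estimates ran from -0.09 for Washc4 (interval -0.58 to 0.40) to 0.05 for Vps26b (interval -0.06 to 0.17). For Washc5 the interval was -0.14 to 0.08. Without LM9 replicate 1, 1 of the 8, Vps35, had an unadjusted p under 0.05 and 0 passed.

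The other genes of the pathway were taken from 10 lists of 72 genes, of which 68 were tested (Snx31, Magel2, Wasf3 and Was are not analysed here). In LM1, 36 were called higher and 20 lower, and in LM9 36 higher and 24 lower. In both lines together 34 of 68 were higher and 18 (26.5%) lower, against 39.6% and 33.5% of all genes. The median log2 difference of the 68 was 0.35 in LM1 and 0.25 in LM9, beside 0.08 and 0.13 over all genes. Without LM9 replicate 1, 36 of the 68 were called higher and 27 lower in LM9, and each gene named below that was called in LM9 kept its direction and its call. Of the genes named below, those that moved by more than 0.25 on the log2 scale were then Jmy at 0.98, Sorl1 at -4.16, Cyfip1 at 1.81, Commd5 at 2.78 and Commd1 at -1.46, beside Washc1, given above, and Cyfip2, which was near the floor in parental libraries. With total counts the medians of the 68 were 0.57 and 0.61, with 41 called higher and 18 lower in LM1 and 42 and 16 in LM9.

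The Retriever and CCC complexes return cargo by a route parallel to retromer, and Retriever is built from a VPS35-like subunit with VPS26C and VPS29, the subunit it shares with retromer. Of the 16 tested genes, 10 were higher and 2 lower in both lines, and their median log2 difference was 0.65 in LM1 and 0.86 in LM9. Vps35l, the VPS35-like subunit, had the largest rise in the mean of both lines, from 19.7 ± 0.737 CPM in LM1 to 107 ± 1.55 CPM, and from 19.9 ± 0.746 CPM in LM9 to 105 ± 2.33 CPM (SD, n = 3). Its log2 differences were 2.44 (SE 0.06, limma-voom adjusted p = 1.94e-11) and 2.40 (SE 0.06, adjusted p = 2.43e-11). In LM9 alone Commd5, another CCC subunit, rose more (log2 2.51). Commd1, also of CCC, had the largest fall, by -0.69 in LM1 (adjusted p = 0.00395) and -1.19 in LM9 (adjusted p = 5.88e-05).

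Among retromer adaptors and regulators, 6 of 9 were higher and 2 lower in both lines. Ehd1, a membrane-remodelling ATPase of recycling endosomes, rose from 143 ± 7.80 to 590.1 ± 8.81 CPM in LM1 and from 158 ± 13.4 to 577 ± 5.88 CPM in LM9 (log2 2.05 and 1.88). Snx27, the adaptor that links cargo to both retromer and WASH, fell from 207 ± 8.96 to 117 ± 2.19 CPM in LM1 (log2 -0.82) and from 167 ± 27.9 to 120.2 ± 1.45 CPM in LM9 (log2 -0.46). With total counts the LM9 fall of Snx27 was -0.11 and did not pass (limma-voom adjusted p = 0.442).

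The sorting nexins with a BAR domain form a coat that works beside retromer. Of 5 genes, 3 were lower and 1 higher in both lines. Snx5 fell from 308 ± 7.32 to 117 ± 5.29 CPM in LM1 and from 388 ± 65.8 to 122 ± 0.620 CPM in LM9 (log2 -1.40 and -1.66). Its paralogue Snx32 had 0 counts in all 6 parental libraries and 217 to 264 counts in the labelled knockouts, at least 57.2-fold and 55.8-fold higher than a floor of 3 counts per library.

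Of the ubiquitin regulators of WASH, the deubiquitinase Usp7 rose in both lines (log2 0.45, limma-voom adjusted p = 0.00357, and 0.84, adjusted p = 4.08e-05). The ubiquitin ligase Trim27 was near the threshold in both, at 0.17 (adjusted p = 0.0434) and 0.18 (adjusted p = 0.0339). Its LM1 call was lost when any LM1 or labelled LM1 KO library was left out (adjusted p = 0.0565 to 0.107), and its LM9 call without LM9 replicate 2 (0.125) or 3 (0.0897) or labelled LM9 KO replicate 2 (0.0557) or 3 (0.110).

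The Arp2/3 complex, which WASH activates, had 6 of 9 genes higher and 1 lower in both lines, with medians of 0.38 in LM1 and 0.29 in LM9. Arpc4 rose most in each line, from 70.5 ± 2.64 to 154 ± 5.09 CPM in LM1 (log2 1.12) and from 88.9 ± 14.5 to 152 ± 3.47 CPM in LM9 (log2 0.79). Arpc1a fell by -0.39 (limma-voom adjusted p = 0.000104) and -0.50 (adjusted p = 1.25e-05), and by -0.16 and -0.14 with total counts, where both still passed (adjusted p = 0.00544 and 0.011). Capping protein, a heterodimer that stops filament growth and binds WASHC2, had both alpha genes higher and the beta gene lower. Capza1 rose by 0.37 and 0.80 and Capza2 by 0.43 and 0.36, while Capzb fell by -0.52 and -0.66 (-0.30 and -0.31 with total counts).

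The WAVE complex is the counterpart of WASH at the plasma membrane, built from structurally related subunits. Of 8 genes, 4 were higher and 1 lower in both lines, and the medians were 0.12 and 0.13. Nckap1 rose from 181 ± 7.22 to 406 ± 9.38 CPM in LM1 (log2 1.16) and from 157 ± 18.4 to 419.9 ± 4.65 CPM in LM9 (log2 1.43). Cyfip1 rose by 0.69 (limma-voom adjusted p = 0.00706) and 1.45 (adjusted p = 4.42e-05). It had 84.1 ± 2.13 CPM in LM1, 53.8 ± 24.5 CPM in LM9 and 136 ± 3.62 and 139 ± 1.27 CPM in the labelled knockouts. Its paralogue Cyfip2 was nearly absent from parental libraries, with at most 1 count in LM1 and 1 to 6 counts in LM9, and was at 16.7 ± 0.894 and 15.7 ± 0.662 CPM in the labelled knockouts, at least 163-fold higher than the 3-count floor in LM1. Brk1, the counterpart of Washc3, fell in LM9 (-0.60, adjusted p = 0.000553, and -0.24 with total counts), and in LM1 it was at -0.27 (adjusted p = 0.0504), where it passed without LM9 replicate 1 (2.59e-07), 2 (0.0364) or 3 (0.0419). Abi2 fell by -1.75 and -1.61.

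Of the other activators of Arp2/3, none was higher and 2 of 3, Whamm and Wasl, were lower in both lines, while with total counts only Whamm was called in either line. The third, Jmy, was lower in LM1 (-0.87, limma-voom adjusted p = 0.0336), and with total counts its LM1 difference of -0.65 did not pass (adjusted p = 0.127). LM9 had 66.8, 16.0 and 21.5 CPM and labelled LM9 KO 35.3, 37.6 and 37.2 CPM, a difference of 0.34 (adjusted p = 0.408) that was 0.98 and passed without LM9 replicate 1 (adjusted p = 3.79e-08). Whamm, which acts on the Golgi and early secretory membranes, fell from 39.9 ± 0.625 to 10.2 ± 0.674 CPM in LM1 and from 37.4 ± 1.75 to 10.3 ± 0.593 CPM in LM9 (log2 -1.98 and -1.86). Wasl, the widely expressed N-WASP, fell by -0.42 (limma-voom adjusted p = 0.000609) and -0.23 (adjusted p = 0.0261). The LM9 fall of Wasl was lost without LM9 replicate 3 (adjusted p = 0.0703) or labelled LM9 KO replicate 1 (adjusted p = 0.117), and with total counts it turned to 0.13 (adjusted p = 0.256). The LM1 fall of Wasl was -0.20 with total counts and did not pass (adjusted p = 0.0814).

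Cargo of retromer and WASH went both ways, with 3 of 12 genes higher and 6 lower in both lines. Itgb1, the integrin beta 1 chain, rose from 417 ± 14.7 to 2452 ± 58.4 CPM in LM1 and from 442 ± 24.1 to 2522 ± 28.7 CPM in LM9 (log2 2.56 and 2.52). Sorl1, a sorting receptor of the VPS10 family, fell from 54.8 ± 1.58 to 1.06 ± 0.0444 CPM in LM1 (log2 -5.67), and from 30.2 ± 19.8 to 1.05 ± 0.230 CPM in LM9 (log2 -4.68).

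**Figure D4:**
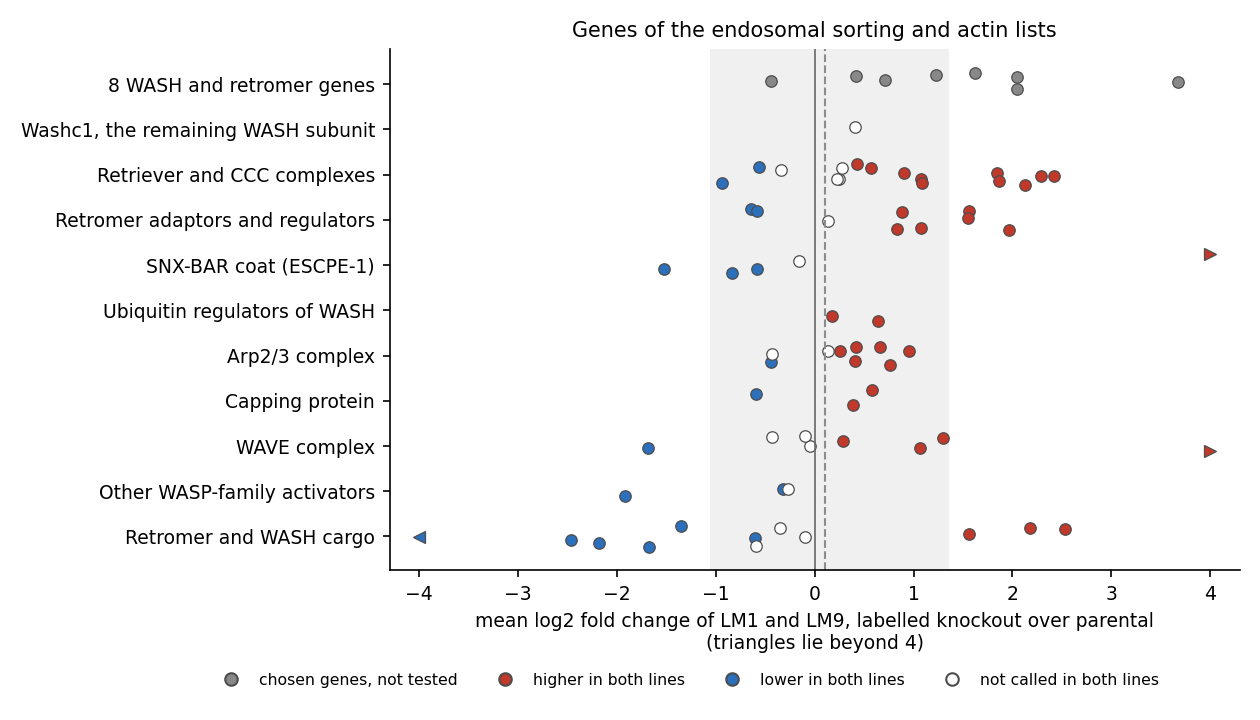
Mean log2 difference of LM1 and LM9 for each tested gene of the lists, a point per gene, with red for genes called higher and blue for genes called lower in both lines, white for the rest and grey for the 8 chosen genes. The band spans the middle 50% of all genes. Points of the Retriever and CCC, adaptor and Arp2/3 lists are mostly red (10 of 16, 6 of 9 and 6 of 9), and those of the SNX-BAR and cargo lists more often blue (3 of 5 and 6 of 12). Triangles lie beyond the axis.

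The genes beside Washc5 did not differ to its extent. Among the 5 tested genes on each side of it on chromosome 15, the mean log2 difference of both lines ran from -1.56 to 1.37, with a median of -0.98, and 3 of 10 had the sign of Washc5. Nsmce2, which encodes a SUMO ligase subunit and starts 80 bases from Washc5 on the opposite strand, had 1.54 (SE 0.14) in LM1 and 1.20 (SE 0.14) in LM9. Sqle, on the other side, encodes the sterol synthesis enzyme squalene epoxidase and had 0.56 (SE 0.17) and -0.02 (SE 0.17). The largest in size was the processed pseudogene Gm7691, at -1.34 and -1.78. For Washc4 and Vps26a the neighbours were mostly higher too, with 7 and 8 of 10 above 0. For Washc4 the median was 1.56, and 4 neighbours had at least its size. For Vps26a, 3 neighbours (Hkdc1, 4930507D05Rik and Gm47261) were at or under 3 counts in every parental library, and with these at their bound over that floor the median was 1.53, with 3 neighbours of at least its size, against a fitted 2.46 and 5. For the other genes between 4 and 6 of the 10 neighbours shared the sign.

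Other members also start head to head with a gene on the opposite strand. Washc2 and the noncoding 9530062K07Rik start 45 bases apart, and that RNA had log2 differences of 1.49 and 1.03. Vps26b and Ncapd3, a condensin subunit gene 110 bases away, were both lower (-0.76 and -0.48 for Ncapd3). Vps29 and Rad9b, 136 bases apart, differed in direction (-1.19 and -1.02 for Rad9b). The origin recognition gene Orc6, whose first exon overlaps that of Vps35, had 1.49 (SE 0.07) in LM1 and a like value in LM9.

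**Figure D5:**
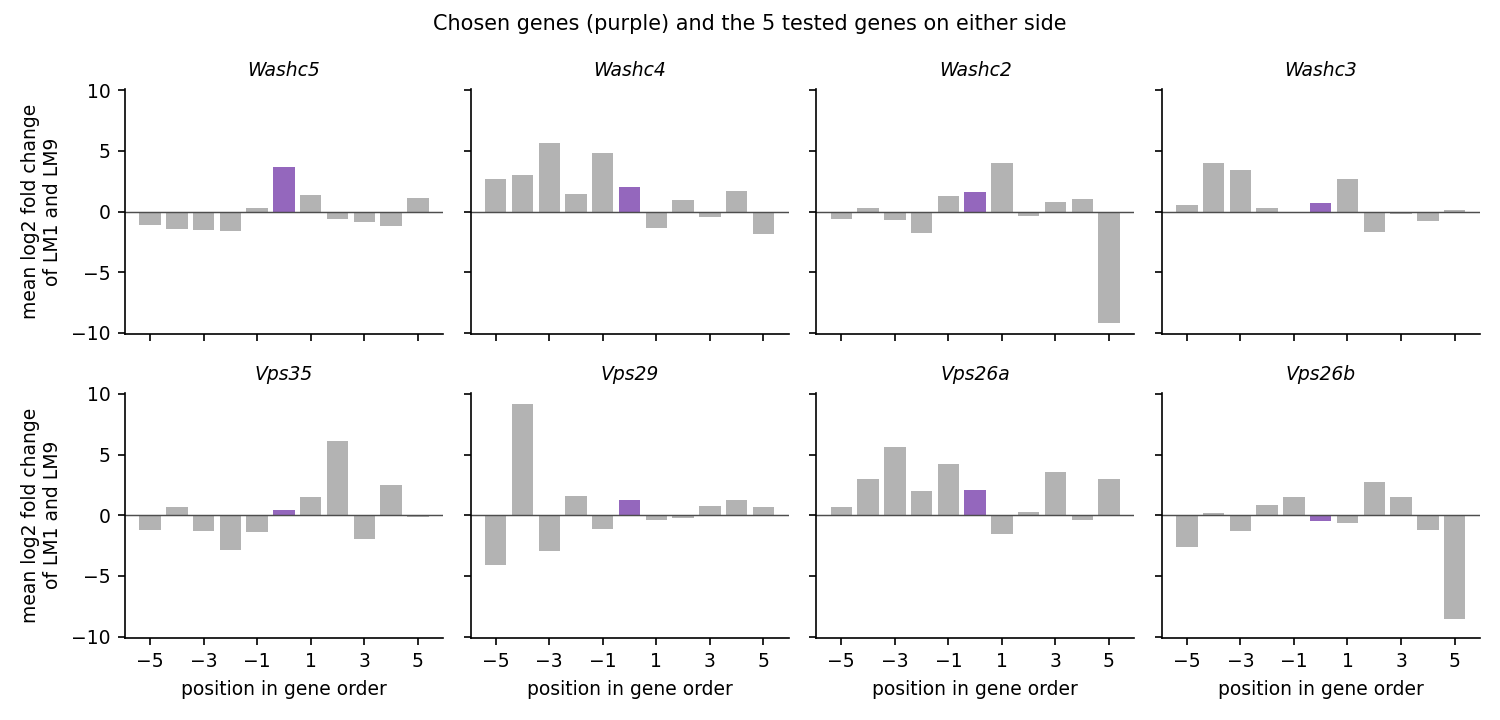
Mean log2 difference of LM1 and LM9 for each chosen gene (purple, position 0) and the 5 tested genes on either side in order of their start. Around Washc5 the grey bars stay between -1.56 and 1.37, below its 3.67, and around Washc4 and Vps26a 7 and 8 of the 10 neighbours are above 0. Bars are fitted values, which are no exact sizes for genes under 3 counts in a group.

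Likeness to Washc5 was measured as the root mean square difference of log2 CPM, centred on each gene's mean, over the 12 libraries, for 10279 genes with a mean of at least 10 CPM. The values are a description, since the libraries share the group structure. The nearest genes were Lrpprc (0.0719), Rbm19 (0.0800), Aif1l (0.0844), Gtf3c6 (0.0881) and Trmt6 (0.113). Lrpprc, which encodes a stabiliser of mitochondrial mRNA, had 9.81 ± 0.401 CPM in LM1 against 133 ± 1.69 CPM in its labelled knockout, and 9.66 ± 0.187 against 135 ± 4.55 CPM for LM9. No other WASH or retromer gene was among these. Vps26a ranked 631 (0.823), Washc4 889 (0.946), Washc2 1072 (1.03) and Vps29 1723 (1.23), followed by Washc3 at 2895, Vps35 at 3696 and Vps26b at 6238.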

How the data were processed

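RNA-seq gene counts of 12 tumoursphere libraries were used. Per the labels and the study's methods, the authors made stranded mRNA libraries, sequenced single-end reads, aligned them with STAR to mm10 and counted reads by their 5′ ends over the exon union of each gene with QuasR. The deposited values are whole-number counts, not normalised, 1 file per library. The tool versions used for these RNA-seq files are not given in the sources used here, nor whether counting used strand. Genes were named from GENCODE M21 (18268 of 18278 identifiers matched).

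limma-voom, which the study used, was run on all 12 libraries with a mean per group, TMM factors, filterByExpr (count minimum 10, total minimum 15) and an offset of 0.5. Tests were two-sided, with Benjamini-Hochberg adjustment over all genes of a contrast and a threshold of 0.05. Fits were run in R 4.3.3 with limma 3.58.1. The other packages were DESeq2 1.42.0 and edgeR 4.0.16. Alternatives were DESeq2, edgeR's quasi-likelihood fit, no filter, total counts or median-ratio factors for scaling, quality weights, a replicate block, fits of only the groups compared and leaving out each library. A floor of 3 counts corresponds to 0.0807 to 0.103 CPM of the library total and covers counting error only. Nothing says that replicates came from separate cultures, so p-values measure the spread between these libraries.

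The 8 genes, the lists and the motifs were chosen with earlier results of these data known. All 8 genes are named. Of lists of at most 3 genes all were named, and of longer lists the highest and lowest gene called in the same direction in both lines, with 4 WAVE subunits (Nckap1, Cyfip1, Cyfip2 and Brk1). For Washc5 the neighbours on each side and the largest, and the 5 genes of nearest profile, were named. The head-to-head neighbours, Fam216a, Gm44103, Commd5, Jmy and the neighbours of Vps26a were named after their values were seen. Fam45a in the files was read as Dennd10. Counts were simulated with 200 genes shifted by 1 on the log2 scale, from a common base profile at a dispersion of 0.01. No simulated library lay apart as LM9 replicate 1 does. The test recovered 192 for LM1 Nfib KO against LM1 (12 false calls among 17590 genes). It recovered 168 for the interaction (12 among 17601) and 194 for LM1 against LM9 (11 among 17554). These rates therefore do not carry over to the 12 libraries here.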

Additional observations from a re-analysis of the deposited data

Results flagged for a closer look

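The interaction passed the threshold for the genes listed here without LM9 replicate 1, and with all libraries under sample quality weights. With all libraries unweighted it did not (limma-voom). Values without LM9 replicate 1 (log2 scale, LM9 minus LM1) were Washc4 1.56, Vps35 0.49, Vps26a -0.34, Washc3 -0.33, Vps26b -0.18 and Vps29 -0.18. The interaction equals LM1 against LM9 minus the comparison of the labelled knockouts, so it largely repeats the parental comparison. Washc1 was at -0.78 (SE 0.08, adjusted p = 2.86e-07) without that library, at -0.76 (adjusted p = 1.93e-07) with quality weights and at -0.51 (adjusted p = 0.202) with all libraries unweighted. The cause was not tested.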

How the results depend on the processing

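The 8 genes kept their direction in both lines under all 20 alternatives to the reported fit. In LM1, 7 of the 8 rather than 8 passed with the replicate block and when LM1 replicate 1 or 3 or any labelled LM1 KO library was left out, a count from which nothing is read, since that contrast chose the genes. Total counts in place of TMM factors moved the median of all genes from 0.08 to 0.31 in LM1 and from 0.13 to 0.49 in LM9. With them the log2 difference of Vps35 was 0.47 in LM1 and 0.95 in LM9, and that of Washc3 1.03 and 0.96. The interaction called 6 of the 8 genes with sample quality weights and 0 to 6 when a library was left out, the 6 being without LM9 replicate 1. LM1 against LM9 called 3 of the 8 with DESeq2, 6 with quality weights, 2 with total counts and 0 to 6 when a library was left out. Over all genes, the interaction called 78 with DESeq2, 1 with edgeR, 10557 with quality weights, 1 with total counts and 0 to 10444 when a library was left out. LM1 against LM9 called 6159 with DESeq2, 0 in the fit of only those groups, 11596 with quality weights, 5226 with total counts and 0 to 11995 when a library was left out. Labelled LM1 KO against labelled LM9 KO called 6 genes in the fit of only those groups. The median of the Washc5 neighbours was -1.17 with quality weights and -0.69 with total counts. The fall of Wasl in LM9 turned to 0.13 with total counts. With the replicate block, LM1 against LM9 called 0 genes, and the interaction and the comparison of the labelled knockouts called 0 of the 8 genes, as without it. Replicate numbers did not pair the libraries (correlations of deviations from the group means of -0.0502 to 0.026). The cause of these changes was not tested. No gene of the 8 was near the floor of 3 counts in any library.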
